A study of Mus musculus with 3 samples.

Results

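The 10 genes described here encode epithelial amino acid transporters of the kidney: *Slc7a12*, *Slc7a13*, *Slc7a7*, *Slc7a8*, *Slc7a9*, *Slc7a5*, *Slc3a1*, *Slc3a2*, *Slc6a19* and *Slc6a18*. They were chosen by name, as every probe set whose platform annotation gives exactly 1 gene symbol from that list, and they are 10 of the 18193 genes named on the array. The 10 genes had 13 probe sets among the 45101 of the array. Kidney RNA was profiled on 2 arrays of a cardio-renal syndrome model and 1 array of uninephrectomy alone. The cardio-renal mice had the abdominal aorta constricted below the renal arteries and lost 1 kidney 2 weeks afterwards, and the uninephrectomy mice lost 1 kidney only. All were male C57BL/6J mice aged 16 weeks, and the kidney left behind was taken 6 weeks after the uninephrectomy. The labels do not say whether the uninephrectomy mouse had a sham banding, or whether an array holds the RNA of 1 mouse. Whether the spread between arrays is a spread between single mice is therefore not known.

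The kidney filters free amino acids and takes nearly all of them back in the proximal tubule. Carriers in the apical membrane bring them in from the urine, most of them driven by sodium or by exchange, and carriers in the basolateral membrane pass them on to the blood. Many carriers of the Slc7 family are light chains that need a heavy chain of the Slc3 family, bound by a disulphide bridge, to reach the membrane. *Slc3a1* is the apical heavy chain and *Slc3a2* the basolateral one.

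The values are MAS5 signals, which are array intensities on a linear scale. Differences are on the scale log2(signal + 28.8) and were taken for each cardio-renal array from the uninephrectomy array. A probe set was kept for tests when its mean on that scale reached 7.02, the median over all probe sets, and 12 of the 13 transporter probe sets were kept. The exception was the probe set of *Slc7a5*. Signals of different probe sets are not compared, since each has its own binding strength. Both cardio-renal arrays were set against the same lone uninephrectomy array, so their differences are not independent.

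Cardio-renal array 1 stood apart from both other arrays, so every result is given for each array by itself. Across kept probe sets, 219 were at least 2-fold apart between the cardio-renal arrays, 229 between array 1 and the uninephrectomy array and 106 between array 2 and the uninephrectomy array. Cell type markers were listed by name with earlier results of these data known. Those of the proximal tubule were bright on every array, the dimmest at a signal of 1784. Their 15 signals summed to 177297 and 201978 in the cardio-renal arrays and 185401 with uninephrectomy alone, sums led by the brightest markers. Of the 15, 3 were higher and 3 lower in both arrays. The other 9 had opposite signs, as 39.6% of all kept genes had. In array 1, 11 were lower and 4 higher, and in array 2, 11 were higher and 4 lower. Summed leukocyte markers stood at 2083 and 1844 against 2572, a sum in which *Lyz2*, at 950.3 and 790 against 1332, was the brightest. Of the 4 leukocyte markers kept, 3 were lower in both arrays and 1, *Cd68*, was higher. Among all kept genes, 29.7% were lower and 30.6% higher in both. *Lyz2* and *Cd68* are named after their values were seen. Loop of Henle markers summed to 51195 and 53161 against 53012, and all 4 had opposite signs in the cardio-renal arrays. All 7 heart muscle markers were higher in both cardio-renal arrays, where 30.6% of all kept genes were. Their summed signals were 1922 and 1369, against 265.2 with uninephrectomy alone. Only 4 of the 7 were bright enough to be kept. *Myh6*, the cardiac myosin heavy chain, had 349.4 and 188.2 against 9.93, and *Actc1*, cardiac actin, 545 and 400 against 72.7. Both were kept only through their cardio-renal signals. The part of these heart transcripts in the results below was not tested. In whole-kidney RNA, fewer cells of a type and less RNA per cell cannot be told apart.

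*Slc7a12* was the transporter that differed most, and the other apical and basolateral carriers lay close to the uninephrectomy array, except for *Slc7a13*, which was lower in array 1, and the dim *Slc7a5*, which was not tested. In limma's fit, 0 of the 12 kept transporter probe sets passed Benjamini-Hochberg adjustment at 0.05, and 0 of all 22493 kept probe sets did (0%), with 625 of the 22493 at an unadjusted p under 0.05. For the transporters the lowest adjusted p was 0.9998 (limma). Among them, 1 probe set, that of *Slc7a12*, was above the uninephrectomy array by 2-fold or more in each cardio-renal array, where 0.142% of all kept probe sets were. No transporter probe set was at least 2-fold lower in both, against 0.0533% of all. Of the 12, 6 were higher in both arrays without regard to size, 2 were lower in both and 4 had opposite signs, while among all kept probe sets 31.8% were higher and 29.7% lower in both. The median difference over the 12 was 0.10 in array 1 and 0.024 in array 2, beside 0.020 and -0.0062 over all kept probe sets. In 9 of the 12 probe sets both arrays lay within 0.3 of the uninephrectomy array, a width chosen after the values were seen. The same held for 64.7% of all kept probe sets, so lying close was not particular to the transporters.

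**Figure D1:**
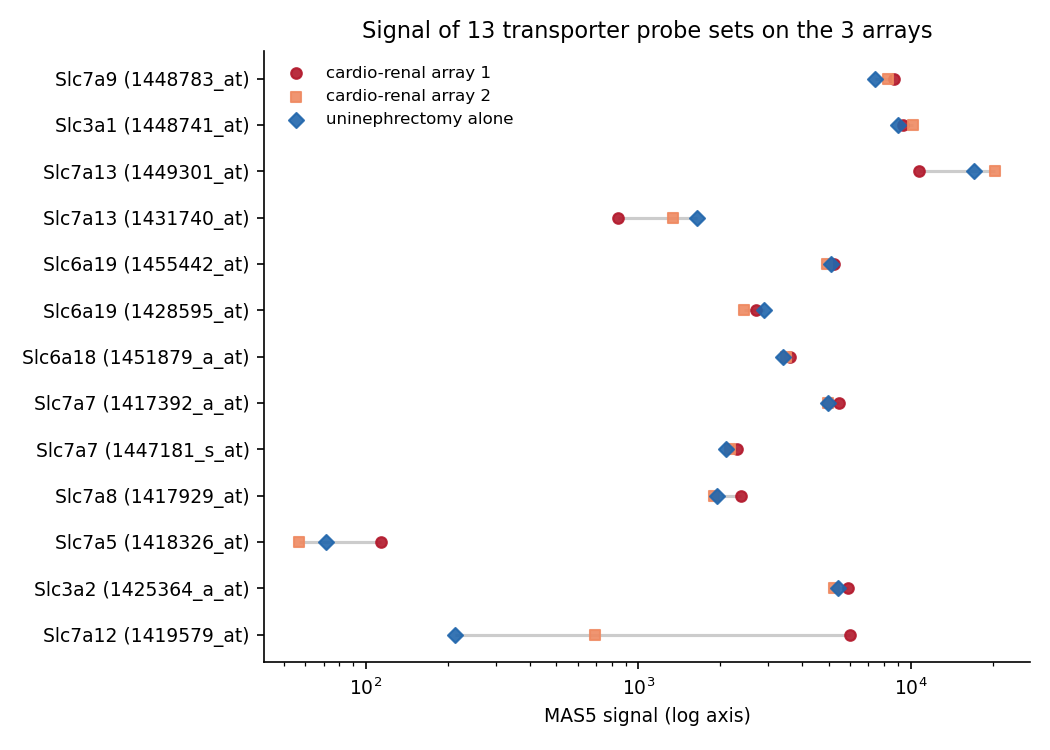
MAS5 signal (log axis) of each of the 13 transporter probe sets in cardio-renal array 1 (circles), cardio-renal array 2 (squares) and the uninephrectomy-alone array (diamonds); grey lines span the 3 arrays. *Slc7a12* spans 213.4 to 6011, while *Slc6a18* and both probe sets of *Slc7a7* keep their 3 signals close together.

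The cystine and dibasic amino acid exchanger of the apical membrane is a pair of the light chain *Slc7a9* and the heavy chain *Slc3a1*, the genes mutated in human cystinuria. *Slc7a9* had signals of 8712 and 8289 in the cardio-renal arrays, against 7379 with uninephrectomy alone. Both cardio-renal values lay above the control, and they lay closer to each other than to it. The log2 difference was 0.20 ± 0.05 (SD of the differences of 2 arrays), or 1.18-fold and 1.12-fold. *Slc3a1* had signals of 9384 and 10173 in the cardio-renal arrays, against 9011 with uninephrectomy alone. Its cardio-renal values were also the higher ones, but array 1 lay nearer to the control than to array 2. The difference was 0.12 ± 0.08 (SD, 2 arrays). Neither change passed limma, with unadjusted p-values of 0.27 for *Slc7a9* and 0.527 for *Slc3a1*.

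*Slc7a13* encodes an apical carrier for acidic amino acids and cystine, and in mouse and human kidney it is a second partner of the heavy chain *Slc3a1* in the last part of the proximal tubule. Its brighter probe set, 1449301_at, had signals of 10761 and 20403 in the cardio-renal arrays, against 17092 with uninephrectomy alone. Array 1 was the lowest and array 2 the highest of the 3, so the groups overlapped. The differences were -0.67 in array 1 and 0.26 in array 2. Its other probe set, 1431740_at, had signals of 846.3 and 1346 in the cardio-renal arrays, against 1639 with uninephrectomy alone. Here both cardio-renal values were the lower ones, at -0.93 and -0.28. The probe sets therefore shared the lower signal in array 1 and disagreed on the direction in array 2. Over the pair of arrays the differences were -0.21 ± 0.65 and -0.60 ± 0.46 (SD, 2 arrays); the second had an unadjusted p of 0.0473 and an adjusted p of 0.9998 (limma). A difference at least as large as that of 1431740_at in array 1, in either direction, was seen there in 1.27% of kept probe sets.

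The neutral amino acid carriers of the apical membrane are *Slc6a19*, the sodium-coupled transporter lost in human Hartnup disorder, and *Slc6a18*, a relative of the later proximal tubule. They lie side by side in the mouse genome, with 0 annotated genes between them in RefSeq. *Slc6a18* had signals of 3607 and 3501 in the cardio-renal arrays, against 3391 with uninephrectomy alone. The 3 values lay within a narrow band, with a difference of 0.07 ± 0.03 (SD, 2 arrays). The brighter probe set of *Slc6a19*, 1455442_at, had signals of 5252 and 4941 in the cardio-renal arrays, against 5083 with uninephrectomy alone. The control lay between the cardio-renal arrays, and the mean difference was 0.0032 ± 0.06 (SD, 2 arrays). Its other probe set, 1428595_at, had signals of 2716 and 2440, against 2899 with uninephrectomy alone, so both cardio-renal arrays were lower there, by -0.09 and -0.25. The mean of -0.17 ± 0.11 (SD, 2 arrays) did not pass limma (unadjusted p = 0.341). *Cltrn*, which encodes collectrin, a membrane protein that these Slc6 carriers need at the apical surface, had signals of 21777 and 25515 in the cardio-renal arrays, against 26401 with uninephrectomy alone. Both lay lower, at -0.28 and -0.05, and the change did not pass limma's adjusted p (0.9998).

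**Figure D2:**
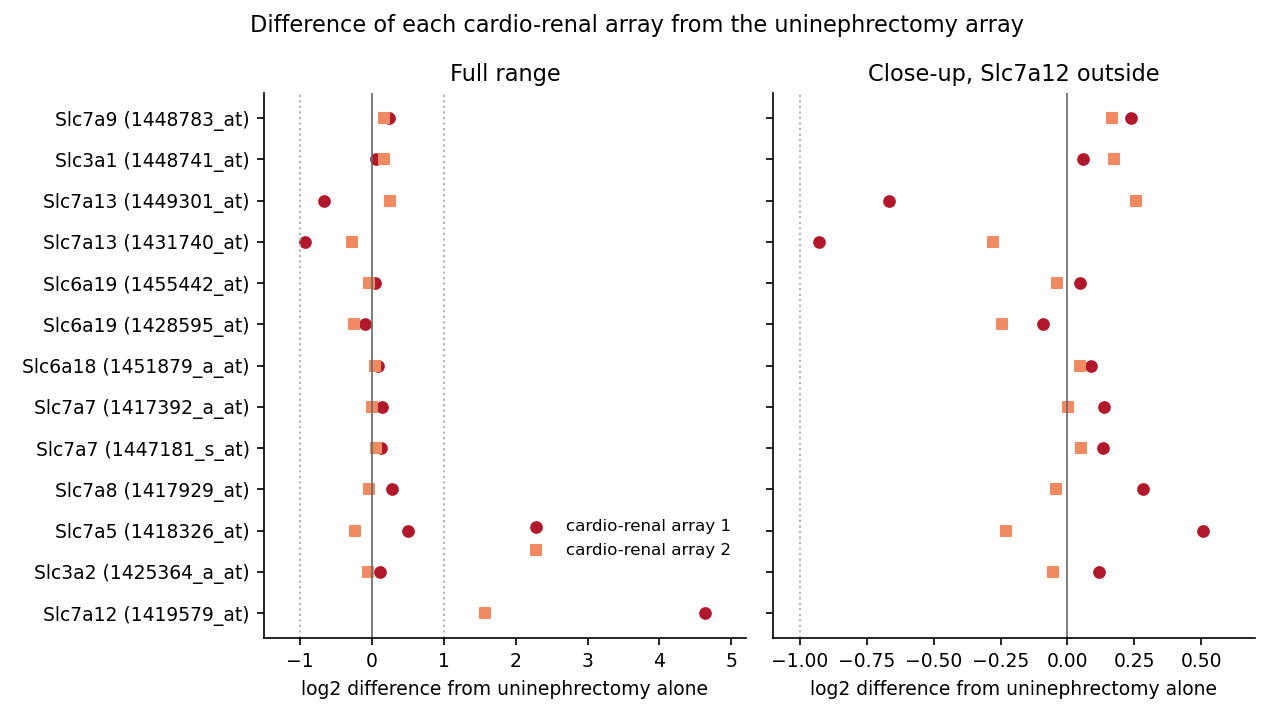
Log2 difference of cardio-renal array 1 (circles) and array 2 (squares) from the uninephrectomy-alone array for each transporter probe set, over the full range on the left and enlarged on the right, where *Slc7a12* lies outside; dotted lines mark a 2-fold difference. *Slc7a13* is lower in array 1 on both probe sets, at -0.67 and -0.93, and the apical pair *Slc7a9* and *Slc3a1* lies above 0 in both arrays.

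At the basolateral membrane, *Slc7a7* encodes the light chain that exports dibasic amino acids and is mutated in human lysinuric protein intolerance, and *Slc7a8* that of a neutral amino acid exchanger. Both pair with the heavy chain *Slc3a2*. The probe set 1417392_a_at of *Slc7a7* had signals of 5470 and 4988 in the cardio-renal arrays, against 4979 with uninephrectomy alone. Array 2 and the control were nearly equal, and array 1 stood apart by 1.10 times. The other, 1447181_s_at, had signals of 2303 and 2177 in the cardio-renal arrays, against 2099 with uninephrectomy alone. The differences of 0.07 ± 0.09 and 0.09 ± 0.06 (SD, 2 arrays) were alike on both probe sets. *Slc7a8* had signals of 2379 and 1896 in the cardio-renal arrays, against 1952 with uninephrectomy alone. Array 1 was the highest and array 2 the lowest, and the difference of 0.12 ± 0.23 (SD, 2 arrays) was smaller than its spread. *Slc7a7* and *Slc7a8* lie on the same chromosome with 15 protein-coding genes between them, per RefSeq.

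*Slc3a2* had signals of 5881 and 5217 in the cardio-renal arrays, against 5414 with uninephrectomy alone. The control lay between the cardio-renal arrays, with differences of 0.12 and -0.05. *Slc7a5* encodes a further light chain of *Slc3a2*, a large neutral amino acid exchanger known from growing and activated cells and usually scarce in the mature kidney. Its probe set had signals of 113.9 and 56.8 in the cardio-renal arrays, against 71.6 with uninephrectomy alone. These values were near or below the array medians of 105.9, 102 and 100.1, and array 1 and array 2 lay on opposite sides of the control, at 0.51 and -0.23. The probe set missed the limit for testing, and whether it was above background is not known without detection calls. The probe sets of *Slc3a2* and *Slc6a18* and both of *Slc7a7* have names that end in _a_at or _s_at, which marks probes shared between transcripts by design.

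*Slc3a2* and *Slc7a5* are known targets of ATF4, the transcription factor of the amino acid response, which raises the uptake and synthesis of amino acids when they run short. A list for that response was chosen with earlier results of these data known. Of its 9 kept genes, 6 were lower and 2 higher in each cardio-renal array. Among all 11144 kept genes, 29.7% were lower and 30.6% higher in both. The list's median was -0.53 in array 1 and -0.38 in array 2, beside 0.0085 and -0.0028 over all kept genes. *Asns*, asparagine synthetase, had signals of 246.7 and 217.7 in the cardio-renal arrays, against 441.3 with uninephrectomy alone. *Phgdh*, the first enzyme of serine synthesis, had 715.6 and 885.3 against 1326, and *Ddit3*, a transcription factor of the stress response, 713 and 629.6 against 1045. *Sesn2*, a leucine sensor, went the other way with 588.5 and 472.8 against 318.6. The adjusted p was 0.9998 for each (limma). The other kept genes of the list are named after their values were seen. *Atf4* itself stood at -0.62 and -0.47, *Chac1* at -0.99 and -0.38 and *Aars* at -0.28 and -0.12. *Psat1* stood at -0.22 and 0.36 and *Vldlr* at 0.10 and 0.01. *Slc3a2*, at 0.12 and -0.05, was not lower in both arrays as 6 genes of the list were. That difference between genes was not tested.

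The bases just before 1 annotated transcript start are shown for *Slc7a7*, its heavy chain *Slc3a2* and, as a comparison, *Asns*, chosen after its match was seen, because the core of the amino acid response element can be looked up there by its letters. Sequences of 150 bases are from RefSeq in the build GRCm38.p6, read 5′ to 3′ in the direction of the gene and ending at the base before the most upstream start that the promoter table lists for it. The annotated genes *Slc7a7* and *Slc3a2* extend further upstream than these windows, which therefore lie inside them. Capitals mark a match to TGATGNAA on either strand.
Slc7a7 (chr14:54417945-54418094, minus strand): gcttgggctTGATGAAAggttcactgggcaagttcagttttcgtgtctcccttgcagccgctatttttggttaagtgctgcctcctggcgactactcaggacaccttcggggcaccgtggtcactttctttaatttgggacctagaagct
Slc3a2 (chr19:8713898-8714047, minus strand): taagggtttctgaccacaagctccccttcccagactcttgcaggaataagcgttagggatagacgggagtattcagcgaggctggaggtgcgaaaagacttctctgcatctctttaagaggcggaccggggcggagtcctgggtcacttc
Asns (chr6:7693210-7693359, minus strand): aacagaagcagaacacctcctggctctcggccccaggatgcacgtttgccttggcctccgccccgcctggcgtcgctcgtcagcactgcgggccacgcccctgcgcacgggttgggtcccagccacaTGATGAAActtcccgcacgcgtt
The match lies 141 bases before the listed start of *Slc7a7*, the most upstream of 5 in the table, and 23 bases before that of *Asns*, and *Slc3a2* has no match to these letters in this window. Of the 10 transporters, 6 were in the promoter table and 1 of the 6, *Slc7a7*, had a match. Among 11 genes of the amino acid response looked up in the same way, *Slc38a2* included, 2 had a match, *Asns* and *Aars*. Of 27025 genes in the table, 2.27% had one. The other 4 transporters are *Slc7a12*, *Slc7a13*, *Slc6a18* and *Slc7a5*. A match is a run of letters and not a measured site.

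*Slc7a12* encodes a carrier of small neutral amino acids that needs a partner other than both known heavy chains, and in mouse kidney its transcript is known to be more abundant in females than in males. It had signals of 6011 and 695.2 in the cardio-renal arrays, against 213.4 with uninephrectomy alone. Both cardio-renal arrays were higher, array 1 by 28.2-fold in signal and array 2 by 3.26-fold, and array 1 had 8.65 times the signal of array 2. The gap between the cardio-renal arrays was thus wider than that between array 2 and the control. On the log2 scale the differences were 4.64 and 1.58, with a mean of 3.11 ± 2.16 (SD, 2 arrays), an unadjusted p of 0.0106 and an adjusted p of 0.9998 (limma). In array 1 it had the highest difference of all 22493 kept probe sets, and in array 2 it ranked 21 from the top. The gene has 1 probe set, so no other signal on the array bears on this value.

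**Figure D3:**
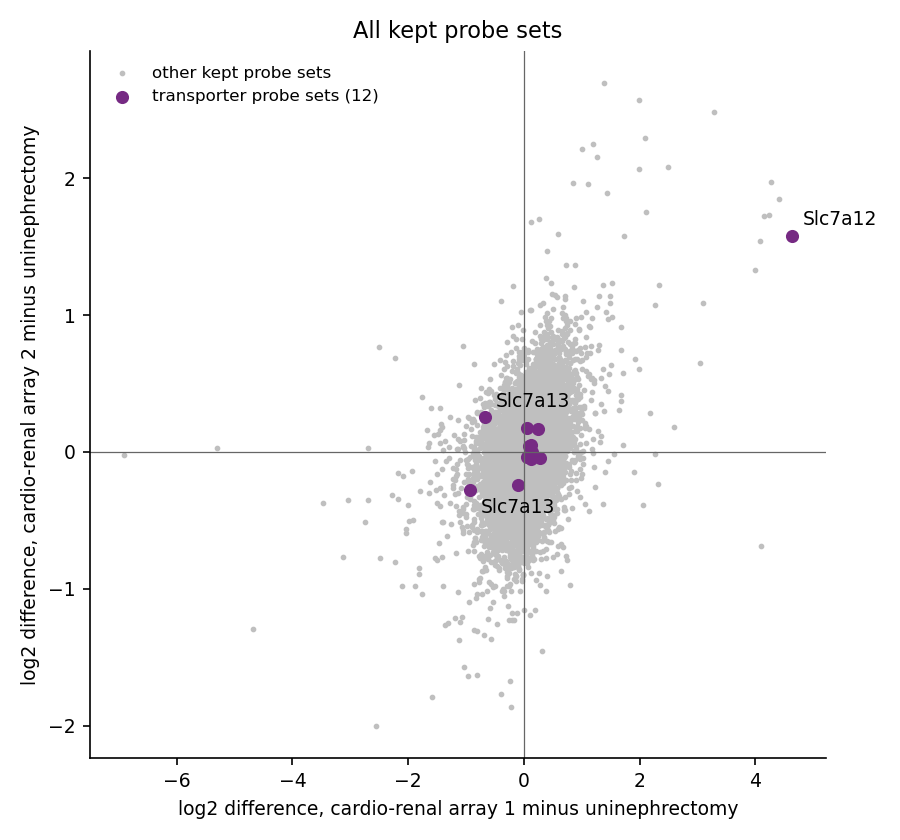
Log2 difference of cardio-renal array 1 (horizontal) and array 2 (vertical) from the uninephrectomy-alone array for all 22493 kept probe sets (grey) and the 12 kept transporter probe sets (purple). *Slc7a12* lies at 4.64 and 1.58, and the other transporters lie in or near the main cloud, with *Slc7a13* at its left.

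The named genes whose pair of differences lay nearest to that of *Slc7a12*, by Euclidean distance over the 2 cardio-renal arrays, were not close to it. *Abcb1b*, a drug efflux pump, was nearest at a distance of 1.62, with signals of 796.3 and 175.7 in the cardio-renal arrays, against 67.3 with uninephrectomy alone. The heart genes *Myh6* and *Actc1* followed at 1.63 and 2.20. *Speer4f1* was next at 2.34, and *Hpd*, an enzyme of tyrosine breakdown, at 2.43 with signals of 2547 and 1106 against 509.4. The second widest range belonged to *Slc7a13*, whose brighter probe set had close neighbours. *Slco3a1*, an organic anion transporter, lay at 0.022 from it, *Kremen1* at 0.031, *Ces1f*, a carboxylesterase, at 0.045, *Acy3*, an aminoacylase, at 0.054 and *Rbm38* at 0.060. *Acy3* had signals of 8986 and 16862 in the cardio-renal arrays, against 14577 with uninephrectomy alone. That is the order of arrays of probe set 1449301_at, which follows from the choice by distance. The other probe set of *Slc7a13*, 1431740_at, had a different order. These distances rest on 3 arrays and describe them only.

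The listed sex-biased kidney genes differed in array 1, the array where *Slc7a12* was highest and *Slc7a13* lowest. These lists were chosen with earlier results of these data known, so their counts and medians describe the listed genes only and test nothing. Of 7 genes known to be higher in male mouse kidney, all 7 lay below the uninephrectomy array in array 1. Of the 7, 4 lay below it in array 2 as well, beside 29.7% of all kept genes lower in both arrays. That share is for both arrays, and the share of all kept genes lower in array 1 alone was not counted. The list's median was -2.50 in array 1 and -0.02 in array 2, beside 0.0085 and -0.0028 over all kept genes. *Acsm3*, *Kap* and *Cyp4a12a*, named after their values were seen, lay above the control in array 2, at 0.03, 0.03 and 0.76. *Slco1a1*, an organic anion transporter under androgen control, had 22.5 and 6064 in the cardio-renal arrays, against 6161 with uninephrectomy alone. *Cyp7b1*, an oxysterol hydroxylase, had 2003 and 10266 against 13094, *Gusb*, beta-glucuronidase, 818.5 and 989.8 against 1124, and *Odc1*, the first enzyme of polyamine synthesis, 13963 and 17570 against 18297. A second kept probe set of *Slco1a1* and of *Gusb* lay above the control in array 2, at 0.03 and 0.10. The summed signals of the 7 genes were 48754 and 92481 against 92930. Of 3 other genes known as female-biased, *Abcc4*, an efflux pump, had 4986 and 1543 against 1491 and *Cyp4a14*, a fatty acid hydroxylase, 6832 and 3957 against 3036. The anion transporter *Slc22a7* went the other way with 459.6 and 3124 against 3985. *Slc7a12* was 3.26-fold higher in array 2 as well, where *Abcc4* was 1.03-fold and *Cyp4a14* 1.30-fold higher. The part of these array differences in the values of *Slc7a12* and *Slc7a13* was not tested.

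**Figure D4:**
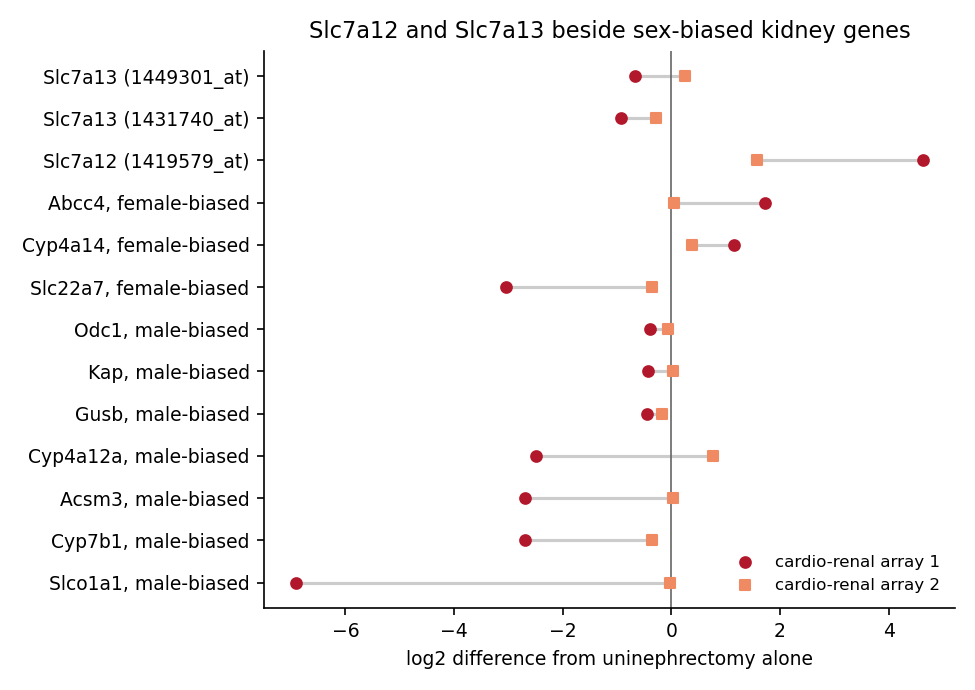
Log2 difference of cardio-renal array 1 (circles) and array 2 (squares) from the uninephrectomy-alone array for *Slc7a13*, *Slc7a12*, 3 female-biased and 7 male-biased kidney genes. In array 1 all 7 male-biased genes lie below 0, down to -6.92 for *Slco1a1*, while *Slc7a12* lies at 4.64.

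Other amino acid transporters were taken from a list of 44 genes, of which 43 had a probe set and 29 were kept. Of the 29, 9 were higher in both cardio-renal arrays, 9 lower in both and 11 of opposite sign, shares of 31% and 31% beside 30.6% and 29.7% among all kept genes. Their median was -0.05 in array 1 and 0.046 in array 2. None passed limma's adjusted p, and 0 were at least 2-fold apart in both arrays. The 2 at an unadjusted p under 0.05 were *Slc38a3* and *Slc38a2*.

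*Slc38a3* is a basolateral carrier that brings glutamine into proximal tubule cells, where it feeds ammonia and glucose production, and it is known to be induced in acidosis. It had signals of 1050 and 537.6 in the cardio-renal arrays, against 309.4 with uninephrectomy alone. Both were higher, by 3.39-fold and 1.74-fold, and the difference of 1.21 ± 0.66 (SD, 2 arrays) had an unadjusted p of 0.00714 (limma). A second, dimmer probe set of the gene, below the limit for testing, had 35.3 and 12 against 42.4 and did not share the direction. *Slc6a20a*, a proline carrier, had 739.8 and 562.1 against 459.8, *Slc6a17* had 345.4 and 295.3 against 252.1, and the glutamine exchanger *Slc1a5* had 578.8 and 474.5 against 422.1. In each of these 4 transporters array 1 was the higher cardio-renal array. The dimmer probe set of *Slc1a5* stood at -0.11 and -0.07. Of the 2 other probe sets of *Slc6a17*, the kept one stood at -0.10 and 0.08 and the one below the limit for testing at 0.01 and -0.47.

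*Slc38a2*, a sodium-coupled neutral amino acid carrier and a known target of the amino acid response, had the lowest mean difference of the list. Its signals were 3056 and 2718 in the cardio-renal arrays, against 4272 with uninephrectomy alone. Both cardio-renal arrays were lower and close to each other, with a difference of -0.56 ± 0.12 (SD, 2 arrays) and an unadjusted p of 0.0101 (limma). Its 2 other probe sets were lower in both arrays too, at -0.66 and -0.84 and at -0.30 and -0.06. The cationic amino acid carriers *Slc7a2*, with 183.2 and 191.4 against 213.2, and *Slc7a1*, with 464.9 and 450 against 489.6, and the aromatic amino acid carrier *Slc16a10*, with 942.7 and 989.1 against 1032, came next when the 9 genes lower in both arrays were ranked by the smaller of their differences. Their differences lay between -0.06 and -0.19 in both arrays, and other probe sets of these 3 genes did not all share the direction.

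**Figure D5:**
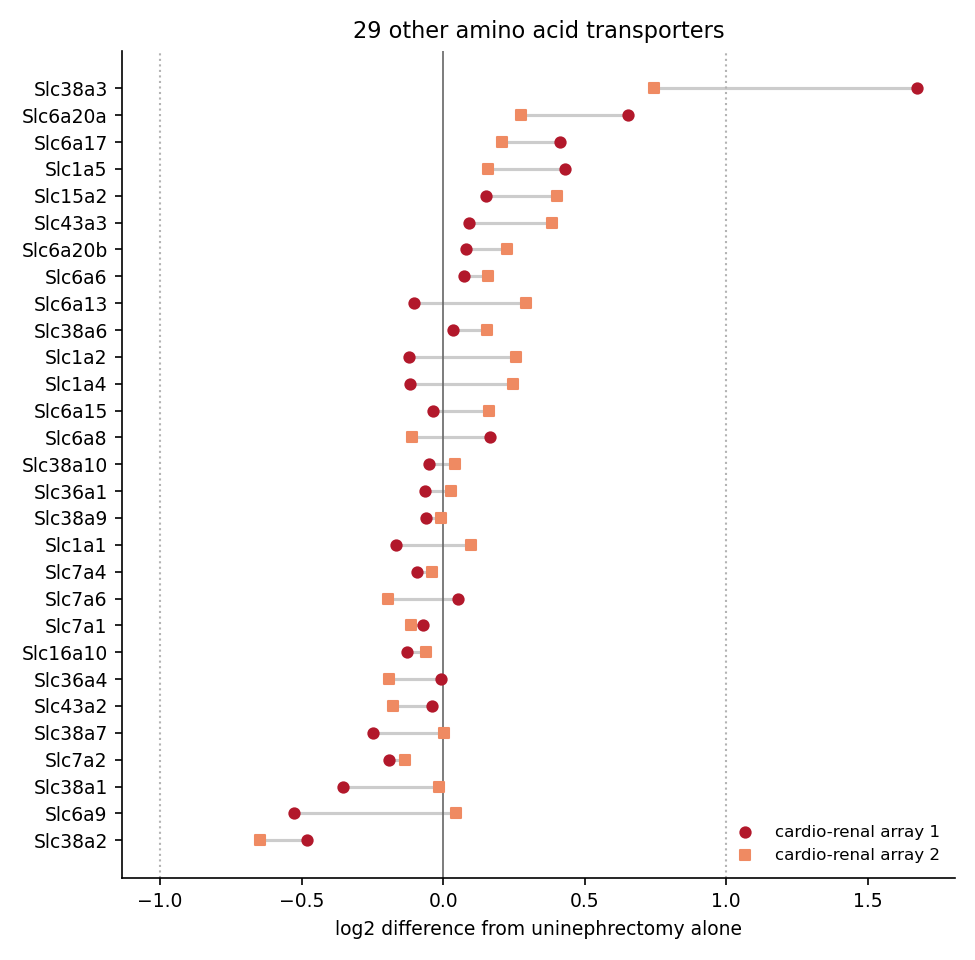
Log2 difference of cardio-renal array 1 (circles) and array 2 (squares) from the uninephrectomy-alone array for the 29 other amino acid transporters kept, ordered by their mean; dotted lines mark a 2-fold difference. *Slc38a3* lies furthest right, at 1.67 and 0.74, and *Slc38a2* lies lowest, at -0.48 and -0.65.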

How the data were processed

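Kidney RNA was measured on 3 single-colour Affymetrix arrays, 2 of cardio-renal syndrome and 1 of uninephrectomy alone. The deposited intensities are MAS5 signals on a linear scale, made with MAS5 (version not given) per the submitters' processing notes. The 2% trimmed mean of the deposited signals was 500 on each array, and they were not scaled again. Because the method takes mismatch probe signals away, low signals are noisy. No detection calls were used.

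Genes came from the platform annotation, with symbols updated through Entrez IDs in a RefSeq table (GRCm38.p6). Of 45101 probe sets, 34958 had 1 symbol, 932 several and 9160 none, and 64 were controls. Signals were turned into log2(signal + 28.8), where 28.8 is the 25th percentile of the signals, as the median of the 3 arrays. Probe sets whose mean reached 7.02, the median over all probe sets, were kept (22493, controls excluded). For counts by gene, the probe set with the highest mean stood for the gene, which left 11144 of 18193 genes. The offset makes differences of dim probe sets smaller than they are.

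limma 3.58.1 in R 4.3.3 (lmFit, eBayes with a trend, two-sided) was fitted to all kept probe sets with Benjamini-Hochberg adjustment at 0.05. The fit assumes that the lone uninephrectomy array varies like the cardio-renal pair. It was checked on simulated data with the same noise for all arrays and probe sets, which share that assumption and cannot test it. The fit has 1 residual degree of freedom. A 2-fold difference in both cardio-renal arrays was counted beside it, without a test. An exact permutation test of 2 arrays against 1 cannot go below p = 0.333, so none is given.

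The members, lists and tests were chosen with earlier results of these data known. From the list of other transporters, the 4 highest and 4 lowest kept genes were named by the smaller of their differences among genes of 1 sign; up to 4 genes of the amino acid response and sex-biased lists and 2 heart genes were named the same way. Collectrin was named in any case. For the 2 members with the widest range, the 5 named genes at the smallest distance were given. Genes named outside this rule are marked as chosen after their values were seen. Alternatives were other offsets, scalings, filters, variance models and choices of probe set, and leaving out each cardio-renal array.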

Additional observations from a re-analysis of the deposited data

How the results depend on the processing

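The log2 differences of the 12 kept transporter probe sets were recomputed under up to 9 alternatives each, 104 values in all. The sign stayed the same in 98 and changed in 6. With median centring, *Slc3a2* stood at -0.0095 and *Slc6a19* (1455442_at) at -0.039. Without cardio-renal array 1, the values were -0.041 for *Slc7a8*, -0.053 for *Slc3a2*, 0.26 for *Slc7a13* (1449301_at) and -0.041 for *Slc6a19* (1455442_at); without array 2 they were 0.28, 0.12, -0.67 and 0.047 for the same 4. *Slc7a12* ranged between 1.58 and 4.64 and was the 1 transporter probe set at least 2-fold higher under every alternative run. limma called no transporter probe set under any alternative; the lowest adjusted p among them was 0.9997 (limma).

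Transporter probe sets higher in both cardio-renal arrays numbered 6 of 12, against 3 of 8 without probe sets that share sequence by design. Those lower numbered 2, and with 1 cardio-renal array left out between 3 and 5. With 1 array left out, a probe set had to be higher or lower in the remaining array only. Such counts cannot fall below those in both arrays, so they do not test them. Other transporters higher in both numbered 9 of 29, against 14 of 43 without the filter and 11 to 18 with 1 cardio-renal array left out. Those lower numbered 9, against 4 in the smaller set of the upper quartile of signals and 11 to 18 with 1 array left out. Their median of -0.0045 became 0.064 in the upper quartile.

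Over all 22493 kept probe sets, 32 were at least 2-fold higher and 12 lower in both arrays. These counts became 14 and 6 with an offset of 100. They were 190 and 60 of 45037 without the filter, and 4 and 6 of 11234 in the upper quartile. Without shared-sequence probe sets, 5 of 16168 were lower. With 1 cardio-renal array left out, 59 to 110 probe sets were higher and 47 to 119 lower, counted in the remaining array only. limma called 0 except without shared-sequence probe sets, where it called 3 higher (*Actc1*, *Myh6* and 1 unnamed probe set). Leaving out a cardio-renal array left limma no residual degree of freedom, so no test was made, and the lone uninephrectomy array could not be left out. No paired analysis was possible because the labels pair no arrays between the groups. With 3 arrays and no detection calls, signal over background and the number of arrays limit what can be seen.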
